A study of Mus musculus with 8 samples.

Results

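The genes described here are 10 that encode the machinery of histone H3.3 deposition: Hira, Ubn1, Ubn2, Cabin1 and Asf1a around the HIRA complex, H3f3a and H3f3b for H3.3 itself, and Atrx, Daxx and Chd2. They were chosen by name, and all 10 were found among the 45706 genes of the RNA files and among the 16258 that passed the filter on low counts. RNA-seq and ATAC-seq, which maps DNA open to a transposase, were made from LSK cells (Lin-Sca1+cKit+) of C57BL/6 mouse bone marrow, a sorted fraction that holds haematopoietic stem and progenitor cells. For each assay 2 libraries carry the label WT and 2 the label Hira KO. The labels give the second genotype as a conditional knockout of Hira. The Cre driver, the route of its induction, the age of the mice and any pooling are not given in the sources used here. Nothing in the labels says that libraries of a group came from separate animals, so the p-values measure the spread between these libraries, which may be technical.

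The genotype labels carry a conflict that touches every direction given here. All 8 deposited files bear in their names the other genotype than the sample titles do. Groups follow the titles, and the words "labelled WT" and "labelled Hira KO" stand for those titles throughout. If the file names were right, each direction would turn round.

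H3.3 is the replacement form of histone H3, which is put into chromatin at any stage of the cell cycle, whereas the replication-dependent H3 genes supply newly copied DNA. The HIRA complex brings H3.3 to active genes and regulatory elements, and ATRX with DAXX brings it to telomeres and pericentromeric repeats. H3f3a and H3f3b are separate genes that encode the same protein, so their RNAs add to a common H3.3 supply.

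The start sites of Hira, H3f3a and H3f3b lay inside regions called open in every ATAC library. The 250 bases before each start are shown because Hira is the targeted gene and because H3f3a and H3f3b, which encode the same protein, had RNA values that went in opposite directions. The sequences are RefSeq's, of build GRCm38.p6, read 5′ to 3′ on the gene's strand, at chr16:18876500-18876749 (plus strand) for Hira, chr1:180813606-180813855 (minus strand) for H3f3a and chr11:116024505-116024754 (minus strand) for H3f3b. The H3f3b start used, chr11:116024504, lies inside the annotated span of the gene (chr11:116021961-116026039), so the outer 5′ end of that span is not shown. Capitals mark matches, found on either strand, to the motif CCAAT, the motif CCGGAAG, the motif GGGCGG and the motif TGACG.
Hira: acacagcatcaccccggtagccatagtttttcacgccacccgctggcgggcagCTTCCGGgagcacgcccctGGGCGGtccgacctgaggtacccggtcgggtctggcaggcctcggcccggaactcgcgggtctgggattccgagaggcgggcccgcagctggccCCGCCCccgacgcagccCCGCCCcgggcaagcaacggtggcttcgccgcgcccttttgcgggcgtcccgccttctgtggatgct
H3f3a: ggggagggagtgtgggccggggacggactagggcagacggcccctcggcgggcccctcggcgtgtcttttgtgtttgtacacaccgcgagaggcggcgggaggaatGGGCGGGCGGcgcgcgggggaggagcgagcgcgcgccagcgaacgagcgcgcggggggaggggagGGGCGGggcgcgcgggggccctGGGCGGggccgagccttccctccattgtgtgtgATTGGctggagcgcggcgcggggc
H3f3b: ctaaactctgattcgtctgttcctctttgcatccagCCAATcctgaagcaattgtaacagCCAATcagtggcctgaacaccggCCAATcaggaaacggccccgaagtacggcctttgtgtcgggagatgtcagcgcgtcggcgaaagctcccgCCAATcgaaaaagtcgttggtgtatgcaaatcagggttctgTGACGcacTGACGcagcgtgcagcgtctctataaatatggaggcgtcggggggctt
The H3.3 genes have promoters that differ in G and C content and in motif matches. That of H3f3a is 77.2% G and C, with 4 matches to GGGCGG, of which 1 pair overlaps, and 1 to CCAAT on the other strand. That of H3f3b is 54% G and C, close to the median of 52.4% over the 32851 promoters of the table. It has 4 matches to CCAAT at 214, 190, 167 and 97 bases before the start, 2 to TGACG, and none to GGGCGG. The 2 are alike in CpG, the pair of C followed by G. Its observed number over that expected from C and G was 1.05 for H3f3a and 1.04 for H3f3b. The median over the 32851 promoters was 0.373. At least 4 matches to CCAAT stand in 0.840% of those promoters, and at least 1 in 33.8%. At least 4 matches to GGGCGG stand in 4.09%, and at least 1 in 32.7%. The Hira promoter is 72.4% G and C, with 3 matches to GGGCGG and 1 to CCGGAAG, the latter found in 6.91% of promoters. At least 1 TGACG stands in 17.8%. CACGTG, also searched on both strands and absent from these 3 windows, stands in 6.02%. A match is a run of letters and says nothing of a factor bound there.

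The RNA libraries held 16.6 to 19.8 M expected counts, of which 40.8% to 53.1% fell on mitochondrial genes. The summed CPM (the count relative to the TMM-scaled total of its library) of 8 genes of the LSK gate was 593 and 701 in the labelled WT libraries and 982 and 1164 in the labelled Hira KO libraries, and Kit itself lay between 274 and 351 in all 4. Markers of cells that the gate should leave out differed between the groups as well. Single genes carry some of these sums. Summed CPM in the labelled WT and labelled Hira KO libraries was 55.0 to 61.9 and 24.0 to 34.1 for 3 B cell genes, 58.5 to 62.3 and 13.1 to 23.7 for 4 erythroid genes, 5.25 to 5.56 and 11.8 to 13.9 for 3 T cell genes, and 11.2 to 17.0 and 131 to 197 for 2 plasma cell genes. Of the T cell genes Cd4 carried the difference, with 3.07 and 3.06 against 10.3 and 10.8 CPM, while Cd3e had 1.75 and 1.26 against 0.466 and 1.62 CPM. Of the plasma cell genes Jchain did, and Sdc1 lay between 3.92 and 5.83 CPM in all 4 libraries. The 4 granulocyte and monocyte genes summed to 245 to 314 and 262 to 286, and of 4 stromal and endothelial genes the 3 tested summed to 62.5 to 69.0 and 62.2 to 66.4, mostly Pecam1. The other stromal and endothelial genes tested were lower in the labelled Hira KO libraries. Cdh5 had 7.25 and 6.51 against 0.933 and 0.841 CPM and Cxcl12 8.58 and 11.1 against 0.725 and 3.55 CPM. Of these 3, Cdh5 passed edgeR's test. No defining marker of these types was at 0 in every library. Their part in the results below was not tested, and in sorted bulk cells fewer cells of a type and less RNA per cell cannot be told apart. ATAC lists held 63422 to 92839 peaks, called per library, and their read depth is unknown.

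Levels can be compared between genes on the TPM scale (transcripts scaled to a fixed total, per length). In the labelled WT libraries H3f3a stood first with 169 and 133 TPM, followed by H3f3b with 113 and 80.6 TPM and Atrx with 109 and 79.8 TPM. H3f3a lay above the others in both libraries. H3f3b lay slightly above Atrx within each library, though their ranges over both libraries overlapped. Ubn2 followed with 44.4 and 37.1 TPM, Daxx with 29.6 and 30.8 TPM, and Asf1a with 24.6 and 19.0 TPM, each without overlap with its neighbour above. Chd2 (22.6 and 17.1 TPM), Cabin1 (17.1 and 13.6 TPM), Hira (16.8 and 11.1 TPM) and Ubn1 (16.8 and 10.5 TPM) closed the order. The range of each over both libraries overlapped that of the gene before it. Within each library Asf1a, Chd2, Cabin1 and Hira kept this order, and only Hira and Ubn1 changed places. In the labelled Hira KO libraries the order of mean TPM was H3f3b, Atrx, H3f3a, Chd2, Ubn2, Daxx, Hira, Asf1a, Cabin1 and Ubn1. The first of these, H3f3b, stood clear of Atrx at 180 and 261 TPM against 123 and 99.8 TPM, Atrx overlapped H3f3a at 117 and 101.4 TPM, Chd2 at 45.1 and 42.8 TPM stood clear of its neighbours on both sides, and from Daxx down every neighbour overlapped.

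Between the groups, Chd2 was the only 1 of the 10 genes to pass the test, edgeR's quasi-likelihood test with Benjamini-Hochberg adjustment over all 16258 genes at 0.05. It was higher in the libraries labelled Hira KO, where 1.32% of all tested genes were called higher and 0.480% lower, 1.80% in either direction. H3f3b had a larger estimated difference and did not pass. Of the 10 genes 9 did not overlap between the groups, 4 higher in the labelled Hira KO libraries (Hira, H3f3b, Atrx and Chd2) and 5 lower (Ubn2, Cabin1, Asf1a, H3f3a and Daxx). Over all tested genes 28.3% lay wholly higher and 27.8% wholly lower, 56.1% in either direction. The median log2 fold change of the 10 genes was -0.08, beside 0.01 over all tested genes.

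**Figure D1:**
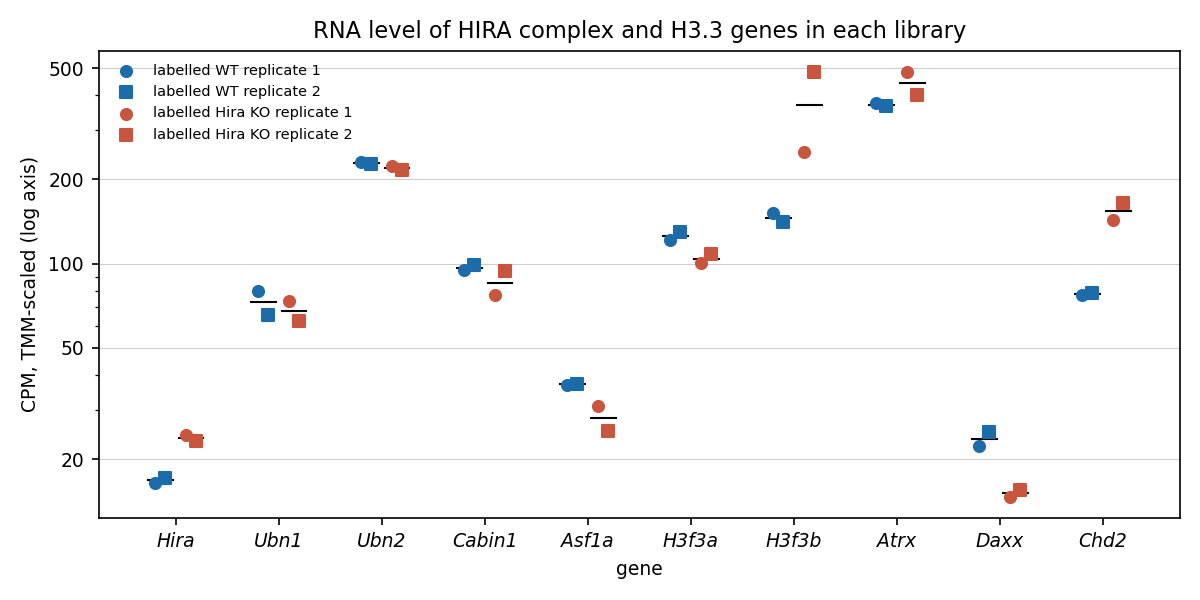
CPM on TMM-scaled library sizes (log axis) of the 10 genes in each RNA library; circles are replicate 1, squares replicate 2, and bars the group means of 2 libraries. Chd2 and H3f3b stand apart between the groups, and the labelled Hira KO libraries of H3f3b lie far apart at 251 and 484 CPM.

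Hira encodes the WD-repeat scaffold of the HIRA complex and is the gene named in the genotype (chr16:18876750-18970309, GRCm38). Its CPM was 16.5 and 17.2 in the labelled WT libraries and 24.4 and 23.3 in the labelled Hira KO libraries. Both libraries labelled as knockouts lay above both labelled WT libraries, the opposite of what a loss of the whole transcript would give. The log2 fold change was 0.50 (SE 0.19, 95% interval 0.05 to 0.95), and it did not pass the test, with an adjusted p of 0.180 by edgeR. On the TPM scale the values were 16.77 and 11.05 against 16.90 and 16.85 TPM, so the groups were separated by a margin far smaller than the spread of the labelled WT libraries. RSEM's average transcript length for Hira, by which TPM divides, ranged from 1506 to 2041 bases. TPM also carries no TMM scaling, so a library-wide scale enters its spread. Cabin1, with a fixed length of 7460 bases, had 94.6 and 98.9 CPM but 17.1 and 13.6 TPM in the labelled WT libraries. A count over the whole gene can hold reads from transcripts that keep most exons after a conditional deletion, so as a check of the labels it is partial.

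The ubinucleins and CABIN1 complete the HIRA complex. Ubn1 and Ubn2 encode related subunits that contact H3.3 directly, and Cabin1 encodes a large subunit first known as a calcineurin inhibitor. Ubn1 had 80.2 and 65.5 CPM in the labelled WT libraries and 73.6 and 62.4 CPM in the labelled Hira KO libraries, which overlap (log2 fold change -0.10, SE 0.17). Ubn2 had 231 and 227 against 223 and 216 CPM. Its groups did not overlap, but the difference was small (log2 fold change -0.06, 95% interval -0.37 to 0.25). Cabin1 had 94.6 and 98.9 against 77.1 and 93.9 CPM, with a log2 fold change of -0.18 (95% interval -0.55 to 0.19). None of these 3 subunits passed edgeR's test, with adjusted p-values of 0.782, 0.834 and 0.547.

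Asf1a encodes the histone chaperone that hands H3.3-H4 dimers to HIRA. Its CPM was 36.8 and 37.3 in the labelled WT libraries and 31.1 and 25.2 in the labelled Hira KO libraries, lower in both (log2 fold change -0.40, SE 0.19, adjusted p = 0.252 by edgeR). Without labelled Hira KO replicate 1 the log2 fold change was -0.58, and without replicate 2 of that label it was -0.26. Either fit leaves 1 library in that group, so only the size is given. Asf1a lies wholly inside Mcm9, a gene of the MCM helicase family, and whether counting used strand is not stated. Mcm9 had 13.3 and 13.1 against 14.6 and 21.4 CPM, in the other direction.

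H3f3b gave the largest estimated difference among the 10 genes. Its CPM was 151 and 141 in the labelled WT libraries and 251 and 484 in the labelled Hira KO libraries. Both labelled Hira KO libraries lay above both labelled WT libraries, and they also lay far from each other. The log2 fold change was 1.33 (SE 0.31, 95% interval 0.57 to 2.09), and with an adjusted p of 0.0847 by edgeR it did not pass. Without labelled Hira KO replicate 2 the log2 fold change was 0.78, and without replicate 1 of that group it was 1.71. Without labelled WT replicate 1 or 2 it was 1.36 and 1.27. Each of these fits leaves 1 library in a group, so only the size is given.

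The labelled Hira KO library with the most H3f3b also had the most RNA of immediate-early genes, which are switched on within minutes of a stimulus. The 21 tested genes of a list of 22, added after the data were seen, summed to 776 and 607 CPM in the labelled WT libraries and to 1794 and 7042 CPM in the labelled Hira KO libraries. Replicate 2 of the latter lay above replicate 1 for 20 of the 21, beside 8076 of all 16258 tested genes. The part of the immediate-early genes in the H3f3b difference was not tested.

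H3f3a, the other H3.3 gene, had 122 and 129 CPM in the labelled WT libraries and 100.4 and 108 CPM in the labelled Hira KO libraries. Its groups did not overlap and lay in the other direction from H3f3b. The log2 fold change was -0.27 (SE 0.14, 95% interval -0.60 to 0.06, adjusted p = 0.296 by edgeR). Reads shared with near-identical copies are a possible uncertainty for these genes. RSEM gave the pseudogenes H3f3a-ps1 and H3f3a-ps2 at most 3.3 counts in any library and H3f3c at most 5.61, beside 1795 to 2367 counts for H3f3a. Its posterior SD of the count was 26.4 to 34.1 for H3f3a and under 0.6 for H3f3b, so the split of reads between copies was narrow by RSEM's own estimate. The antisense gene H3f3aos had 4.29 to 42.5 counts.

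The H3.3 genes shared their reads differently in the libraries of the 2 labels. H3f3b held 55.4% (95% Wilson interval 54.0 to 56.8) and 52.2% (50.8 to 53.6) of the summed H3f3a and H3f3b counts in the labelled WT libraries. It held 71.5% (70.4 to 72.5) and 81.8% (81.0 to 82.5) in the labelled Hira KO libraries. The intervals cover counting error only. The group means were 53.8% ± 2.27 and 76.6% ± 7.29 (SD, n = 2 each), without overlap, and an exact permutation test of 2 against 2 cannot go below a 2-sided p of 0.333. Per length the shares were lower, since the H3f3b transcript is longer: 40.2% and 37.7% of the summed TPM in the labelled WT libraries and 60.6% and 72.0% in the labelled Hira KO libraries. H3f3a was thus the more abundant H3.3 transcript in both labelled WT libraries and H3f3b in both labelled Hira KO libraries.

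Summed over both genes, H3.3 RNA was 282 and 214 TPM in the labelled WT libraries and 297 and 363 TPM in the labelled Hira KO libraries. The groups did not overlap, though the nearest libraries, at 282 and 297 TPM, lay close. The 12 replication-dependent H3 genes matched by symbol, whose RNAs mostly lack a poly(A) tail, summed to 309 and 197 TPM against 203 and 73.6 TPM, which overlap. TPM carries no TMM scaling, so a library-wide scale enters both sums.

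**Figure D2:**
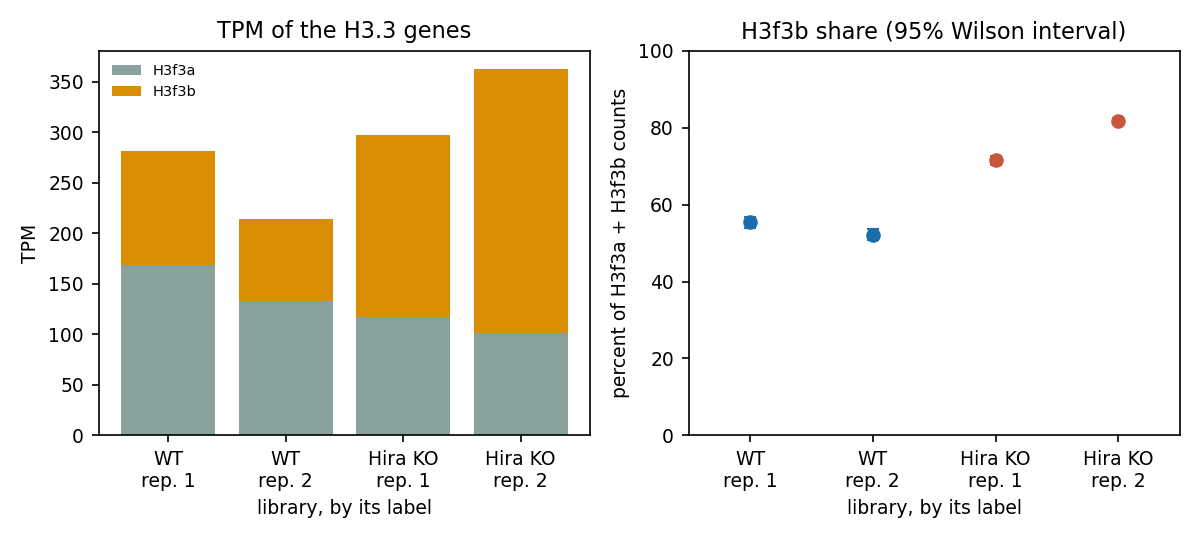
TPM of H3f3a and H3f3b stacked per RNA library (left) and the percent of their summed counts that fell on H3f3b, with 95% Wilson intervals that cover counting error only (right). H3f3b makes up 52.2% to 55.4% of the counts in the labelled WT libraries and 71.5% to 81.8% in the labelled Hira KO libraries.

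Atrx encodes a SWI/SNF-type remodeller and Daxx the H3.3 chaperone that works with it. Their values lay in opposite directions. Atrx had 374 and 365 CPM in the labelled WT libraries and 483 and 401 CPM in the labelled Hira KO libraries (log2 fold change 0.26, 95% interval -0.10 to 0.62, adjusted p = 0.363 by edgeR). Daxx had 22.3 and 24.9 against 14.7 and 15.5 CPM, lower in both labelled Hira KO libraries (log2 fold change -0.64, SE 0.20, 95% interval -1.11 to -0.18). The interval of the Daxx difference leaves out 0, but over all genes tested its adjusted p was 0.121 by edgeR. It stayed between -0.74 and -0.57 under all 12 alternative settings and passed in none of them.

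Chd2 encodes a chromodomain helicase that has been tied to H3.3 loading at active genes. Its CPM was 77.6 and 78.3 in the labelled WT libraries and 143 and 164 in the labelled Hira KO libraries. The replicates of each label lay close together and the groups far apart. The log2 fold change was 0.98 (SE 0.15, 95% interval 0.64 to 1.33), a 1.97-fold rise with an adjusted p of 0.0347 by edgeR. Without labelled WT replicate 1 or 2 the size was much the same, 0.96 and 0.97. Leaving out labelled Hira KO replicate 1 or 2 gave 1.06 and 0.87. Each of these fits leaves 1 library in a group, so only the size is given. DESeq2 gave a log2 fold change of 0.96 and an adjusted p of 0.000204. With a replicate block edgeR gave 0.98 and an adjusted p of 0.0246. The limma test on log2(TPM + 1) gave a log2 fold change of 1.12 and an adjusted p of 0.1203.

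The gene beside Chd2 rose with it. Chaserr (1810026B05Rik in the older naming), a long noncoding RNA known to hold down Chd2 from its own neighbouring locus, spans chr7:73539798-73558395 and shares 1949 bases with the annotated span of Chd2 (chr7:73426652-73541746). It was singled out after its values were seen. Its CPM was 43.2 and 34.4 in the labelled WT libraries and 88.1 and 70.9 in the labelled Hira KO libraries. The log2 fold change was 1.03 (SE 0.19) with an adjusted p of 0.0487 by edgeR. Reads over the shared bases cannot be told apart in these counts. The strand of Chd2 was not given, and whether counting used strand is not stated.

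Chd2 was also the only 1 of the 7 genes with several transcripts whose average transcript length, as RSEM estimated it, was shorter in both labelled Hira KO libraries. It was 4711 and 4790 bases in the labelled WT libraries and 4248 and 3830 bases in the labelled Hira KO libraries, a mean change of -15.0%. Ubn2 (7030 and 6310 against 7772 and 7275 bases) and H3f3a (1168 and 1194 against 1301 and 1215 bases) were longer in both, and the other 4 overlapped. Over the 10504 tested genes with several transcripts, 17.7% were shorter in both labelled Hira KO libraries and 15.5% longer, so 1 and 2 of 7 lie near that background. The length follows which transcripts RSEM assigns reads to and was not tested.

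**Figure D3:**
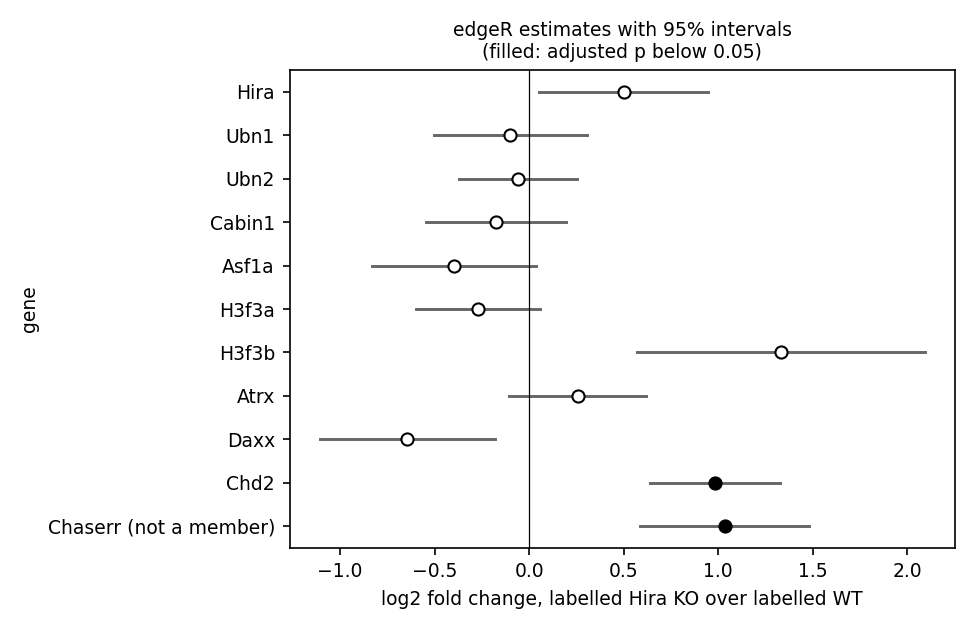
Log2 fold change, labelled Hira KO over labelled WT, of the 10 genes and of Chaserr, with 95% intervals from edgeR; filled points passed at an adjusted p of 0.05. Chd2 at 0.98 and Chaserr at 1.03 are filled, while H3f3b at 1.33 has a wider interval and is open.

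The genes whose pattern over the 4 RNA libraries was most like that of Hira were Fars2, a mitochondrial phenylalanyl-tRNA synthetase, Cnot6l, a deadenylase, and Ccdc181. Likeness was the root mean square difference in log2 CPM centred on each gene's mean, which was 0.01 for Fars2 and 0.02 for the other 2. Those most like Chd2 were Tmc5, Taf7, a subunit of the general factor TFIID, and Armcx1, at 0.03 to 0.04. Among 12643 protein-coding genes, 251 came within 0.1 of Hira and 77 within 0.1 of Chd2, so over 4 libraries such likeness is common.

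Around the 10 genes, 58 genes of 4 neighbouring lists were tested, and edgeR called none of them in either direction. At an unadjusted p below 0.05, 6 were higher and 13 lower in the labelled Hira KO libraries, beside 12.2% and 10.6% of all tested genes. DESeq2 called 0 higher and 4 lower, and limma on log2(TPM + 1) called 0 in either direction. The 22 other chaperones of H3 and H4 had the lowest median. Their median log2 fold change was -0.35, beside 0.01 over all tested genes, and 16 of the 22 lay wholly lower in the labelled Hira KO libraries and 1 wholly higher. Of all tested genes 27.8% lay wholly lower and 28.3% wholly higher. Chaf1a, a subunit of the CAF-1 complex that loads H3.1 and H3.2 behind replication forks, had 47.9 and 44.6 against 28.1 and 22.1 CPM (log2 fold change -0.88, adjusted p = 0.0632 by edgeR). Mcm2, a helicase subunit that also binds H3 and H4, had 169 and 145 against 106 and 111 CPM. Npm1, an abundant nucleolar chaperone, had 996 and 1133 against 759 and 699 CPM. Asf1b, the paralogue of Asf1a found mostly in dividing cells and named after its values were seen, had 22.0 and 17.8 against 13.3 and 10.04 CPM.

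The other 3 lists lay closer to the background, which was 27.8% of all tested genes wholly lower and 28.3% wholly higher. The 18 partners and readers of H3.3 had a median log2 fold change of -0.22, with 8 wholly lower and 4 wholly higher. Sp100, a scaffold of PML bodies, had 51.5 and 50.5 against 72.6 and 89.8 CPM, Cbx5, which encodes the heterochromatin protein HP1α, had 364 and 428 against 293 and 207 CPM, and Zmynd11, a reader of methylated H3.3, had 35.5 and 35.1 against 48.5 and 49.9 CPM. The 9 other CHD remodellers had a median of -0.09, with 3 wholly higher and 3 wholly lower. Chd7 had 28.4 and 16.0 against 9.53 and 9.86 CPM, Chd3 had 39.8 and 41.1 against 58.2 and 61.4 CPM, and Chd6 had 116 and 129 against 152 and 171 CPM. The 9 other replacement histone genes had a median of -0.28, with 3 wholly lower and 2 wholly higher. H2afy, which encodes macroH2A1, had 336 and 309 against 444 and 446 CPM, H2afx had 58.4 and 59.0 against 51.4 and 29.8 CPM, and H2afz had 327 and 314 against 305 and 224 CPM.

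Strand and start site were known for 9 of the 10 genes, all but Chd2. In the ATAC lists all 9 had a start site inside a region called in all 4 libraries, as did 79.96% of the 8641 tested genes with 1 start site in the table. The values below are the authors' fold enrichment of each peak over the caller's background, which ranks peaks within a list and was not tested between lists. Its median at start sites was 54.5 and 38.4 in the labelled WT lists and 52.7 and 44.3 in the labelled Hira KO lists, so replicate 1 was the higher list under either label.

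For Hira the region was chr16:18876178-18878384 (GRCm38), with a fold enrichment of 80.2 and 53.5 in the labelled WT lists and 70.4 and 54.6 in the labelled Hira KO lists. These overlap, and no region within 10 kb of Hira was called in both libraries of 1 label and neither of the other. Of 6 regions there, 2 were called in labelled WT replicate 1 alone. Asf1a had the highest value of the 9, 163 and 154 against 169 and 162 (chr10:53596242-53598009), and Atrx the lowest, 40.02 and 18.7 against 40.3 and 25.4 (chrX:105928215-105929867). The region of H3f3b had 92.2 and 83.0 against 88.1 and 101.2 (chr11:116023402-116024992), and that of H3f3a 87.9 and 62.0 against 83.2 and 60.1 (chr1:180812406-180814828). Start-site values of the H3.3 genes thus overlapped between the labels. Those of Ubn1 (81.8 and 67.9 against 96.5 and 79.6) and Ubn2 (72.7 and 60.4 against 81.8 and 68.6) overlapped too. Cabin1 (75.2 and 52.2 against 103 and 77.2) and Daxx (66.2 and 56.1 against 78.1 and 81.3), which has 3 start sites in the table, were the 2 of the 9 without overlap, both higher under the Hira KO label. Over the 6909 start sites inside a region called in all 4 libraries, 19.8% lay wholly higher under that label and 3.97% wholly lower, and the median log2 difference was 0.0952 toward it. The 2 of 9 are near that background. The RNA values of Cabin1 and Daxx lay in the other direction. For Chd2, whose strand the table does not give, the region over the end it shares with Chaserr had 37.3 and 28.9 against 34.03 and 22.0 (chr7:73541243-73542387), and a stronger region inside that end 143 and 132 against 162 and 177 (chr7:73537416-73538520).

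**Figure D4:**
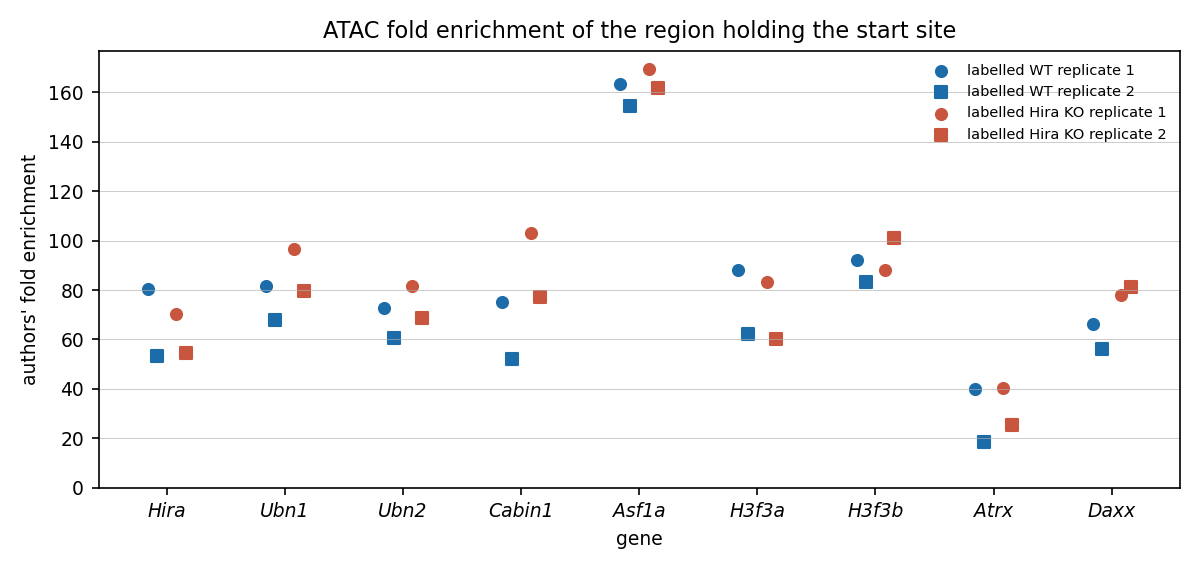
The authors' fold enrichment of the ATAC region that holds the start site, per library, for the 9 genes with a known start site. Values of the labels overlap for 7 genes and not for Cabin1 and Daxx, and Asf1a stands highest at 154 to 169.

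Within 10 kb of the gene bodies, 3 regions were called in both labelled WT libraries and neither labelled Hira KO library, beside Cabin1, H3f3a and Chd2. The reverse held for 4, beside Cabin1, Asf1a, H3f3a and Chd2. Of all 112479 merged regions, 2.77% were of the first kind and 5.64% of the second. Over 13493 tested genes with a region nearby, 17.7% had at least 1 of the first kind and 23.4% of the second. The median such gene had 6 regions within 10 kb, beside 17 for Cabin1, 15 for H3f3a, 24 for Chd2 and 5 for Asf1a. Most of the 3 and 4 regions were weak and short. Those of the first kind near Cabin1 (chr10:75708766-75709035) and Chd2 (chr7:73542676-73543051) had a fold enrichment of 4.62 and 4.92, and of 2.502 and 4.27. Those of the second kind were 301 to 650 bases wide with a fold enrichment of 3.26 to 6.86, at chr10:75676984-75677431 in Cabin1, chr10:53595415-53596064 before Asf1a, chr1:180822222-180822633 before H3f3a and chr7:73451729-73452029 in Chd2. Without labelled WT replicate 2 the first count was 15, but a region of the first kind then needed a call in labelled WT replicate 1 alone. The rule grows looser when a library is left out, so this rise does not show that the counts depend on single libraries.

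The region near H3f3a stood out by its width. It covered 2355 bases over the 3′ end of the gene (chr1:180800334-180802688) with a fold enrichment of 8.27 and 10.2 in the labelled WT lists. To follow it, bases called open were counted in the 3 kb beyond the 3′ end of each gene, a measure added after these values were seen. Beyond H3f3a 2226 and 2110 of 3000 bases were called in the labelled WT libraries and 0 in both labelled Hira KO libraries. Beyond H3f3b the counts were 2623 and 2170 against 1021 and 1133. Both H3.3 genes thus had less called sequence in the 3 kb past their 3′ ends in the libraries labelled Hira KO. The RNA value of H3f3b was higher in those libraries and that of H3f3a lower, and a link to RNA level was not tested. Within 1 kb beyond H3f3b the counts were 879 and 637 against 297 and 627, so the nearest libraries lay close.

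Less called sequence past the 3′ end was seen at other genes too. Among 6023 windows that no other annotated gene touched, that of H3f3a ranked 9 and that of H3f3b 52 by the size of the difference toward fewer bases. Of the 1693 such windows with called bases, 23.0% had less in both labelled Hira KO libraries and 14.4% more. Among the 158 free windows of genes with a mean of at least 100 TPM, 72 (45.6%) had less and 4 (2.53%) had more. Called bases averaged 868 and 807 in these 158 windows in the labelled WT libraries and 327 and 279 in the labelled Hira KO libraries. The whole lists covered 45.4 and 32.5 Mb against 47.1 and 36.2 Mb, with no such split. The 10 windows with the largest such differences included those of Rplp2, Tpt1, Rps13 and Rps26, which encode ribosomal or translation-associated proteins, and of Hnrnpf and Cnbp. Of the other genes of the H3.3 machinery, Hira, Ubn2 and Atrx had no called base in a free window in any library, the windows of Ubn1, Cabin1, Asf1a and Daxx were touched by other genes, and Chd2 had no strand. These windows were not put to a test, and the read depth behind the lists is unknown.

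**Figure D5:**
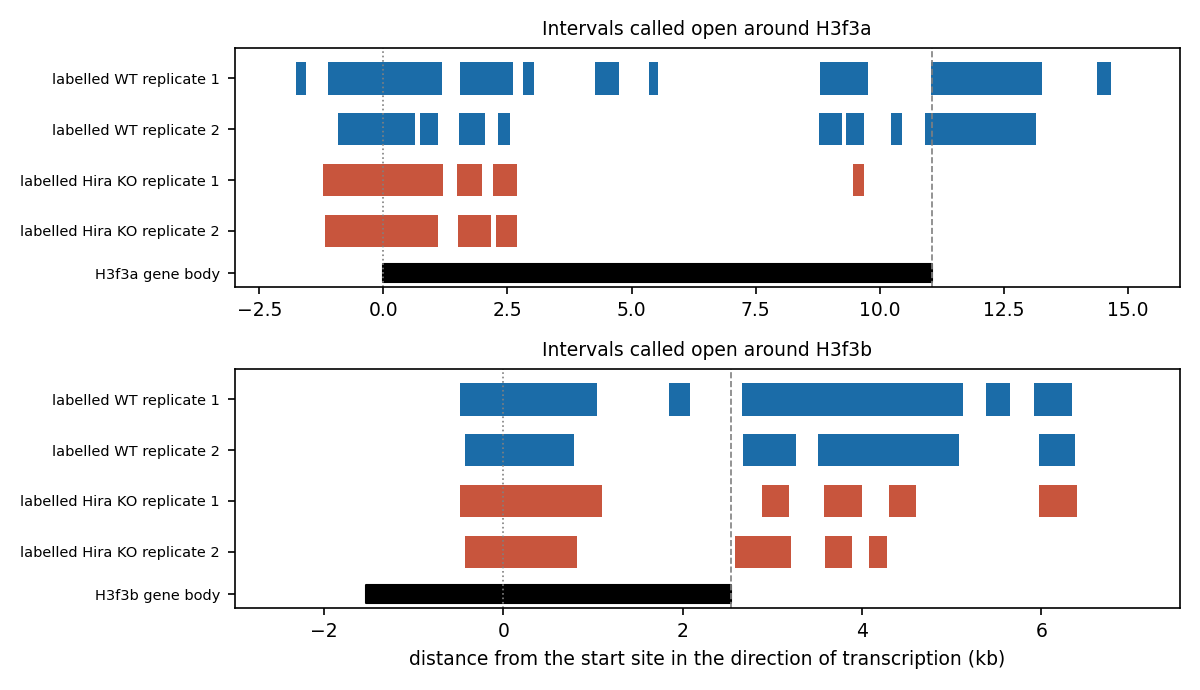
Intervals called open in each ATAC library around H3f3a (top) and H3f3b (bottom), against the distance in kb from the start site in the direction of transcription; black bars are the annotated gene bodies, dotted lines the start sites and dashed lines the 3′ ends. Past the 3′ end of H3f3a 2226 and 2110 bases within 3 kb are called under the WT label and 0 under the Hira KO label, while an interval covers each start site in all 4 libraries.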

How the data were processed

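The members and lists were chosen with earlier results of these data known. The RNA files hold, per gene, the expected counts and TPM that the authors deposited (RSEM columns, per the file headers). The ATAC files are narrowPeak lists, 1 for each library, with each peak's fold enrichment (a ratio), -log10 q-value and score as deposited by the authors. In the submitters' processing notes stand STAR 2.5.3a and RSEM 1.3.0, MACS2 2.1.1, Trim Galore 0.4.5, Bowtie2 2.2.9, bedtools, HTSeq, DESeq2 and the build GRCm38. The sources used here do not give the treatment of the transposase offset.

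Symbols matched 45143 of 45706 gene IDs, and 563 kept their IDs. After rounding, the counts entered the quasi-likelihood F test of edgeR 4.0.16 (R 4.3.3) with TMM factors, filterByExpr and robust dispersion, called at a Benjamini-Hochberg adjusted p below 0.05. SEs and intervals came from the F statistic. DESeq2 1.42.0 and limma 3.58.1 on log2(TPM + pseudocount) were alternatives. In simulated counts for this comparison (15836 genes), 16% of 2-fold and 68% of 4-fold changes among 50 genes each were recovered, and 20 of 112 calls were false. Libraries of a label differed beyond sampling noise (chi-square per gene 53.1 and 75.1).

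Peaks sharing 1 bp were merged, identical intervals joined and the mitochondrial genome left out. Named genes were all 10 members, called list members and the 3 with the lowest p-value in each list, the 3 genes most like Hira and each called member, copies of the H3.3 genes, and regions over start sites or called in the pair of 1 label alone.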

Additional observations from a re-analysis of the deposited data

How the results depend on the processing

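Of the 10 genes, the sign held under all 12 alternatives except for Ubn1, which ranged from -0.25 to 0.043 when 1 library was left out and was above 0 in 2 of those settings (0.043 with labelled WT replicate 1 dropped, 0.0086 with labelled Hira KO replicate 2 dropped). Counts of genes called higher and lower, 214 and 78 by edgeR, were 776 and 505 with DESeq2, 1206 and 1017 without a low-count filter, 372 and 153 with at least 1 CPM in all libraries, 392 and 262 with limma on log2(TPM + 1), 376 and 246 with a pseudocount of 0.1, and 368 and 169 with a replicate block. Leaving out each library gave 1 to 1657 higher and 1 to 1888 lower. Dropping labelled WT replicate 1 left 3 and 1, and dropping replicate 2 of that label left 1 and 1. Dropping labelled Hira KO replicate 1 gave 1657 and 1888, while 665 and 525 were called with replicate 2 of that label dropped. DESeq2 and the fit without a filter moved the median of all genes in the fit to 0.13, but of the same genes to -0.01. Of the 10 genes, 2 were called higher with DESeq2 or without a filter (Chd2 and H3f3b), 0 with limma at either pseudocount, and 0 to 2 on leaving out 1 library, with 0 to 1 lower. In the 4 lists DESeq2 called 0 higher and 4 lower, no filter 1 and 7, and at least 1 CPM 1 lower, and leaving out 1 library gave 0 to 6 higher and 0 to 17 lower. The H3f3b share by TPM was 38.96% and 66.34%. Regions called in the pair of 1 label alone, 3 and 4 within 10 kb, were 5 and 9 within 50 kb, 2 and 1 at a -log10 q of at least 10, and 6 to 15 and 4 to 10 on leaving out 1 library. Leaving out a library loosens that rule, since fewer libraries have to meet it. The fall beyond H3f3a was -1000 bases in 1 kb and -2311.5 in 5 kb, and that beyond H3f3b -296 in 1 kb and -1950.5 at a -log10 q of at least 10, settings chosen after seeing the data. Replicate numbers share only a number (correlation of deviations 0.0609), and the replicate block changed no call among the 10 genes. With 2 libraries per label, the spread between libraries limits what the test can call. A fit without 1 library takes that spread from the pair of the other label alone, so its calls cannot be set beside those of the main fit.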
